A study of Mus musculus with 8 samples.

Results

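Glucagon given alone was compared with its solvent control in primary mouse hepatocytes, liver cells freshly isolated and kept in culture. The comparison takes the 2 arrays of cells that received 100 nM glucagon for 6 h and the 2 arrays of cells that received DMSO for 6 h, 4 of the 8 arrays of the series. They were chosen by their titles and paired by the experiment number that each title carries. The cells of both groups came from male C57Bl6J mice, and no genetic change is named in the labels. Each experiment used cells pooled from 3 mice, and 2 technical replicates were pooled into each sample, so n = 2 pools per group and no value belongs to a single animal. Glucagon-treated and DMSO-treated cells shared a medium with 1 g/l glucose, 0.1% bovine serum albumin and 100 nM dexamethasone, a synthetic glucocorticoid, so every difference below was measured in the presence of a glucocorticoid. The other 4 arrays held cells with 2 µM GW4064, an agonist of the bile acid receptor FXR, with or without glucagon. They entered the estimate of the spread and 1 comparison near the end.

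Glucagon is the pancreatic hormone of fasting. In hepatocytes its receptor activates adenylyl cyclase through a stimulatory G protein. The resulting cyclic AMP releases protein kinase A, which phosphorylates CREB, a transcription factor that binds cyclic AMP response elements in DNA, and lets CRTC coactivators enter the nucleus. The hormone is known for raising glucose output, amino acid uptake and breakdown, urea formation and fatty acid oxidation in the liver. Glucocorticoids and cyclic AMP act together on many of these genes.

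RNA was hybridised to a mouse whole-transcript array, and values are the authors' log2 signals, on which a difference of 1 is a 2-fold change. Of the genes with a probe set that carries a single symbol, 13845 had a signal above the lowest 40% of probe sets on at least 2 arrays and were tested. That level was 3.13 to 3.27, and values at it say only that the signal was low. Array medians lay between 3.42 and 3.57. Pairwise correlations were 0.976 to 0.997 among 7 arrays and 0.975 to 0.985 between them and the GW4064 array of experiment 2, which is not 1 of the 4 arrays compared. Alb, serum albumin, had signals of 13.003 and 13.06 with glucagon, against 12.99 and 13.07 with DMSO, near the highest signals of any probe set, 13.2 to 13.3. Defining genes of Kupffer cells and endothelium ranged from the filter level to bright. The signal of Clec4f, of Kupffer cells, was 3.28 and 3.22 with glucagon, against 3.01 and 3.11 with DMSO. That of Pecam1, of endothelium, was 5.21 and 4.89 with glucagon, against 5.22 and 4.92 with DMSO. Lyve1, also of sinusoidal endothelium, was brighter, with 7.30 and 6.19 with glucagon, against 7.57 and 6.19 with DMSO, and Cdh5 had 6.94 and 6.29 with glucagon, against 6.61 and 6.21 with DMSO. The macrophage gene Cd68, bright on all 4 arrays, is given with the marker lists. In samples of this kind, fewer cells of a type and less RNA per cell cannot be told apart. A few genes given for orientation lie outside the rule for named genes and were picked with their values known (Fos, Fosb, Fbp1, Slc2a2, Otc, Ass1, Asl, Nags, Ccn1, Ccn2, Cd68, Clec4f, Lyve1, Cdh5 and Pecam1).

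More genes were called up than down with glucagon, an excess that some other fits given below did not keep. Of all 13845 tested genes, 6509 lay above 0 and 7336 below. With limma, a linear model over all 8 arrays with the experiment as a block, 89 genes rose (0.643% of the genes tested) and 39 fell (0.282%) at an adjusted p below 0.05. Counts of list members that rose or fell, given below, stand beside these shares. The lists were chosen with earlier results of these data known. All 128 had the same sign in both experiments, which their choice by paired differences favours. At an unadjusted p below 0.05 were 1807 genes, 13.1% of those tested, the share against which such counts of list members below stand. Among the 128 called genes 70 rises and 22 falls exceeded 2-fold, and 16 rises and 2 falls exceeded 4-fold. The median of all tested genes was -0.01. The differences were larger in experiment 1 than in experiment 2 for 66 of the 89 rises and 28 of the 39 falls. Their medians were 1.44 in experiment 1 and 1.23 in experiment 2 for the rises, and -1.17 and -0.97 for the falls. In the plot of both experiments the called genes follow the diagonal at both ends. Their choice favours this too, since the fit calls genes whose differences disagreed little between the experiments.

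**Figure D1:**
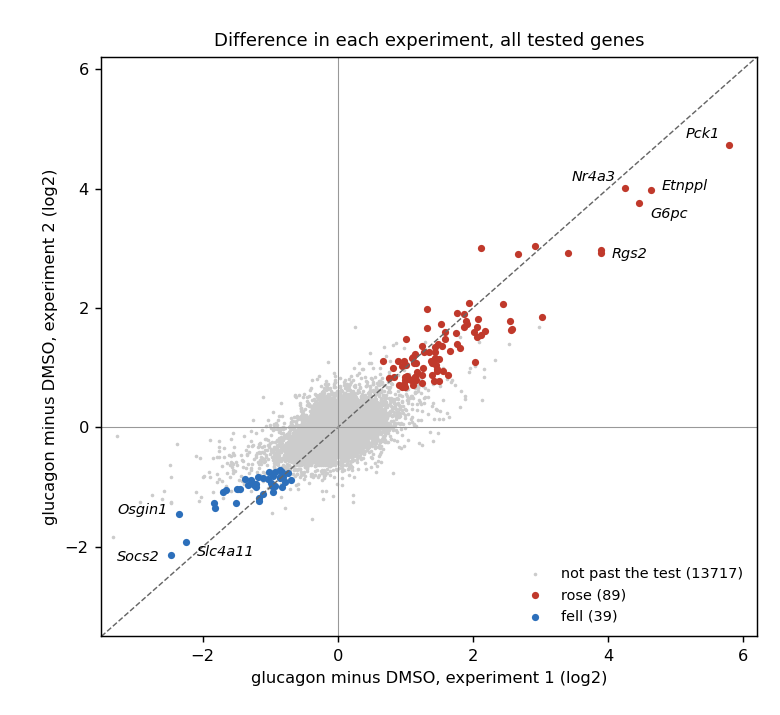
Glucagon minus DMSO (log2) in experiment 1 (x axis) and experiment 2 (y axis) for each of the 13845 tested genes, red for the 89 that rose, blue for the 39 that fell, with equal differences on the dashed line. All red points lie in the upper right and all blue points in the lower left, and Pck1, at 5.79 and 4.73, lies farthest out.

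The block takes out the difference in level between the cell pools, which was large for many genes. Slc4a11, for example, had signals of 6.25 and 4.34 with glucagon, against 8.49 and 6.25 with DMSO in experiments 1 and 2, so that the pools differed by about as much as the treatments. Without the block, 16 of the same genes passed (0.116% of genes, 15 up and 1 down), and the other 112 had adjusted p-values of 0.0531 to 0.927. For most genes named below that passed only with the block, the p-value without it is given, by gene or as a range. In 5 of the 128 called genes the groups overlapped when the experiments were not paired (Il17rb, Plin4, Fam171b, Gprc5a and Msn), and for each of the others both glucagon arrays lay on one side of both DMSO arrays. Over all tested genes the groups did not overlap in 39.2%, and the 128 were chosen on this same difference. The number of calls rested on single arrays: without 1 of the 4 arrays compared it was 10 to 33 (10 without the DMSO array of experiment 1 and 23 without that of experiment 2, 13 and 33 without the glucagon arrays), and without either array of the combined treatment it was 46. Without either GW4064 array it was 438, 204 up and 234 down, and all 128 genes were among them with the same sign, so the excess of rises over falls was not kept there, nor with array weights (224 up and 255 down).

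Among immediate-early factors and CREB targets, a few genes changed by much and most did not pass. Nr4a3, an orphan nuclear receptor induced early by cyclic AMP, had signals of 7.49 and 7.08 with glucagon, against 3.25 and 3.07 with DMSO (probe set 17413945; log2 difference 4.13, SE 0.27, adjusted p = 0.00233). Its DMSO signals lay at the filter level, so the rise of 17.5-fold is a lower limit. Nr4a1, of the same family, had signals of 6.26 and 6.38 with glucagon, against 4.49 and 4.46 with DMSO (log2 difference 1.85, SE 0.11, adjusted p = 0.00156). For both genes the signals of the 2 experiments lay close together in each group and far apart between groups. The third member, Nr4a2, had 5.40 and 4.73 with glucagon, against 6.43 and 4.61 with DMSO and did not pass (difference -0.45 (SE 0.43), adjusted p = 0.76). Its high value came from the DMSO array of experiment 1.

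Ppargc1a, which encodes the coactivator PGC-1α of gluconeogenic and mitochondrial genes, had signals of 6.54 and 7.03 with glucagon, against 3.13 and 4.11 with DMSO (log2 difference 3.16, SE 0.14, adjusted p = 0.000774, and adjusted p = 0.062 without the block). Its DMSO signal of experiment 1 was at the filter level. Irs2, the adaptor of the insulin receptor that CREB is known to induce, had 7.87 and 7.76 with glucagon, against 5.81 and 6.24 with DMSO (log2 difference 1.79, SE 0.16, adjusted p = 0.00812). Egr1, a growth-factor-induced immediate-early factor, went the other way, with 4.15 and 4.11 with glucagon, against 5.81 and 5.15 with DMSO (log2 difference -1.35, SE 0.19, adjusted p = 0.0378, and adjusted p = 0.108 without the block). Of the 28 tested genes on a list of immediate-early factors and CREB targets, 4 rose (Nr4a1, Nr4a3, Ppargc1a and Irs2) and 1 fell (Egr1). Of all tested genes 0.643% rose and 0.282% fell. The list's median was -0.13. Members that did not pass had differences of -0.12 for Fos and -0.00 for Fosb, both at low signal, -0.82 for Junb, -0.53 for Klf9, -0.50 for Klf6 and 0.90 for Klf15. All samples were taken at 6 h, and the labels give no earlier time.

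Genes that restrain the pathway were also among the rises. Rgs2, an activator of the GTPase of G proteins that limits their signalling, had signals of 7.99 and 8.86 with glucagon, against 4.09 and 5.94 with DMSO (log2 difference 3.41, SE 0.32, adjusted p = 0.00857, and adjusted p = 0.298 without the block), a 10.6-fold rise. Sik1, the salt-inducible kinase that sends CRTC coactivators out of the nucleus, had 8.85 and 8.56 with glucagon, against 6.98 and 6.88 with DMSO (log2 difference 1.77, SE 0.19, adjusted p = 0.0139, and adjusted p = 0.108 without the block). The levels of Rgs2 differed more between the experiments than those of Sik1. In both genes each glucagon array lay above both DMSO arrays, while the groups were apart in 39.2% of all tested genes. Of 14 tested genes on the list of cyclic AMP brakes these 2 rose and 0 fell, beside 0.643% and 0.282% of all genes, and the median was 0.28. The phosphodiesterase genes, whose products degrade cyclic AMP, had differences of 0.92 (SE 0.16) for Pde4b, 0.55 (SE 0.11) for Pde3b and 0.60 (SE 0.14) for Pde10a, with adjusted p-values of 0.0725, 0.104 and 0.129. Crem, which also yields a repressor of cyclic AMP targets, had 0.25 (SE 0.14). No gene of the cascade itself passed. Of 19 tested genes for the receptor, cyclases, kinase subunits and coactivators 0 rose and 0 fell by limma, 2 having an unadjusted p below 0.05, beside 13.1% of all genes (median -0.04, range -0.32 to 0.45), with 0.05 (SE 0.11) for the glucagon receptor gene Gcgr, -0.19 (SE 0.10) for Creb1, 0.45 (SE 0.14) for Adcy9, -0.32 (SE 0.12) for Crtc3 and -0.28 (SE 0.15) for Prkacb.

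The promoters of 4 of these raised genes and of the gluconeogenic genes Pck1 and G6pc, described next, are shown because CREB binds the cyclic AMP response element, whose short form is TGACG. Each is the stretch of 250 bases that ends at the base before the transcription start in RefSeq (build GRCm38.p6), written along the gene's own strand, with TGACG and its reverse complement CGTCA in capitals.
Pck1, chr2:173152823-173153072, plus strand: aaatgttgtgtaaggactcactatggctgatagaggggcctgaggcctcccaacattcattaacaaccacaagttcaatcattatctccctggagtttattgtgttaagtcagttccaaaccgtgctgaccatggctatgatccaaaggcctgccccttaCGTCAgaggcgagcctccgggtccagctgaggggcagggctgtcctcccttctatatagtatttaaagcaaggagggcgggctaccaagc
G6pc, chr11:101367466-101367715, plus strand: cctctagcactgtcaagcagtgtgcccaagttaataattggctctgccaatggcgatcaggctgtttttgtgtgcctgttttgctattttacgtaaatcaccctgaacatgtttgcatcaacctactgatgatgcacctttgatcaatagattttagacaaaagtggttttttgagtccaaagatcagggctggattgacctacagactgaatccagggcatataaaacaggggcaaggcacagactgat
Nr4a3, chr4:48045055-48045304, plus strand: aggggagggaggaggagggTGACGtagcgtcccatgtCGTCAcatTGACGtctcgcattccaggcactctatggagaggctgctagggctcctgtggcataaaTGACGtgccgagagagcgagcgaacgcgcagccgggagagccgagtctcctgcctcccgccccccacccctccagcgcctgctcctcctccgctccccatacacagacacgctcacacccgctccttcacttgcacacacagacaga
Nr4a1, chr15:101266596-101266845, plus strand: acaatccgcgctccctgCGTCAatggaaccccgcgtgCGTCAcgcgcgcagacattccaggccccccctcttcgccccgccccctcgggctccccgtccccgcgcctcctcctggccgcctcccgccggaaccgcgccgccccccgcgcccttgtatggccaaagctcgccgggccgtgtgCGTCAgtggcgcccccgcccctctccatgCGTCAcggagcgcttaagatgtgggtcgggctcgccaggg
Ppargc1a, chr5:51567726-51567975, minus strand: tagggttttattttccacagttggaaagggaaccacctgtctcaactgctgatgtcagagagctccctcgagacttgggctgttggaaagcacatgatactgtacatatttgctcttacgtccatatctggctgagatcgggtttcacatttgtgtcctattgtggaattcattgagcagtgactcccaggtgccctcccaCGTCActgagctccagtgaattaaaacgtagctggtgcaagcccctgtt
Rgs2, chr1:144004150-144004399, minus strand: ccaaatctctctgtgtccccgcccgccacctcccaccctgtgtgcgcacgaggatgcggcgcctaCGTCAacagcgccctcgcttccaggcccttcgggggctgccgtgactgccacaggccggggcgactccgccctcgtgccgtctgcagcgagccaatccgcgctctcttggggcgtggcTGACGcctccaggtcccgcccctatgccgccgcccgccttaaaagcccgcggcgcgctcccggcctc

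The Pck1 window held 1 such pentamer, 90 bases before the start, and that of Ppargc1a 1, at 49 bases. Nr4a3 held 4, at 231, 213, 205 and 147 bases, Nr4a1 held 4, at 233, 213, 69 and 40 bases, and Rgs2 held 2, at 185 and 67 bases. The G6pc window held 0. The full palindrome TGACGTCA, which contains both pentamers in overlap, was in none of the 6 windows. A promoter was in the RefSeq table for 71 of the 89 genes that rose, 29 of the 39 that fell and 10743 of the 13845 tested. At least 1 of a gene's windows held a pentamer on either strand in 13 of 71 genes that rose (18.3%) and 3 of 29 that fell (10.3%), against 27.4% of the tested genes. The palindrome was found in 0 of 71 genes that rose, 1 of 29 that fell (Lrrc8a, of a volume-regulated channel) and 2.74% of the tested genes. Over all 32851 windows of the table, a pentamer was in 17.8% and the palindrome in 1.55%. A match describes these letters only, and sequence outside the windows was not searched.

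Gluconeogenic enzymes included the largest rise of all. Pck1, the cytosolic phosphoenolpyruvate carboxykinase, had signals of 9.28 and 9.51 with glucagon, against 3.49 and 4.79 with DMSO (probe set 17380222; log2 difference 5.26, SE 0.26, adjusted p = 0.000919), a 38.2-fold rise. G6pc, the glucose-6-phosphatase that frees glucose, had 10.39 and 9.79 with glucagon, against 5.93 and 6.03 with DMSO (probe set 17256707; log2 difference 4.11, SE 0.19, adjusted p = 0.000774). For Pck1 the pools differed more with DMSO than with glucagon, and for G6pc more with glucagon than with DMSO. Got1, the cytosolic aspartate aminotransferase that returns oxaloacetate carbon to the cytosol, had 11.97 and 11.72 with glucagon, against 10.49 and 10.33 with DMSO (log2 difference 1.44, SE 0.12, adjusted p = 0.0061). The fumarase gene Fh1 had 9.97 and 9.93 with glucagon, against 8.61 and 8.67 with DMSO (log2 difference 1.31, SE 0.13, adjusted p = 0.00935), and the mitochondrial alanine aminotransferase gene Gpt2 had 11.17 and 11.03 with glucagon, against 10.17 and 10.24 with DMSO (log2 difference 0.89, SE 0.11, adjusted p = 0.0263, and adjusted p = 0.062 without the block). These 5 were the rises among 26 tested genes of gluconeogenesis and glucose release, beside 0.643% of all genes. In this list 0 fell, and the median was 0.15. Other members did not pass, with 0.36 (SE 0.14) for the fructose bisphosphatase gene Fbp1, 0.38 (SE 0.14) for the malate dehydrogenase gene Mdh1, 0.28 (SE 0.12) for the glucose carrier Slc2a2 and 0.03 (SE 0.11) for Gapdh. For glycerol entry the values were -0.53 (SE 0.18) for the glycerol channel Aqp9 and -0.35 (SE 0.10) for the glycerol phosphate dehydrogenase gene Gpd1, and neither passed (adjusted p = 0.271 and 0.22).

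**Figure D2:**
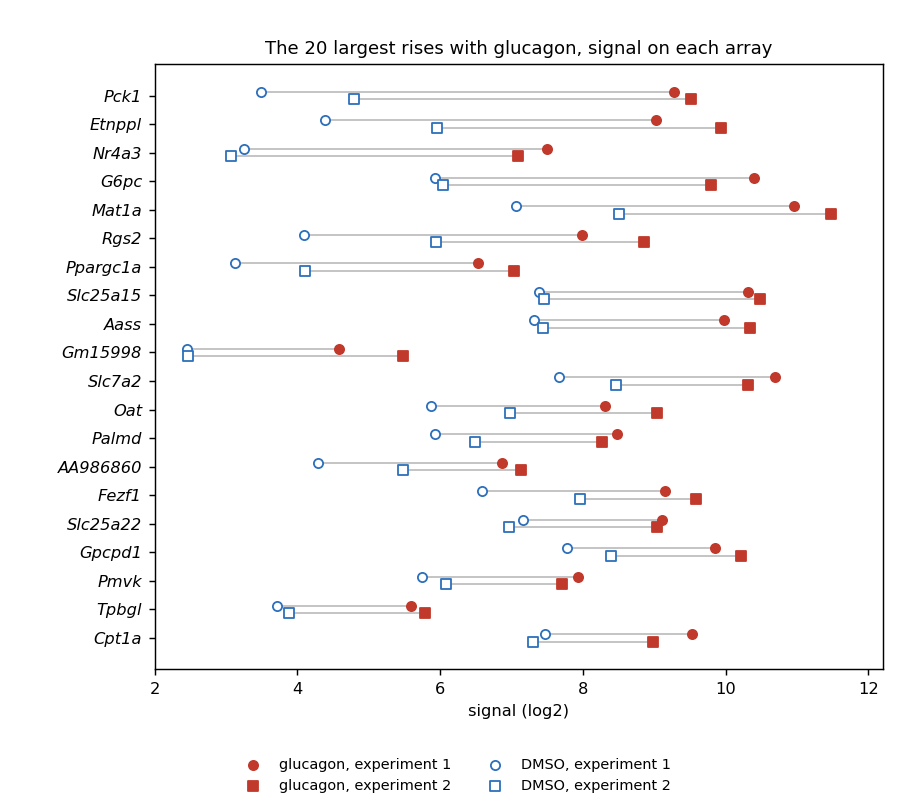
Log2 signal (x axis) on the 4 arrays for the 20 genes with the largest rises, filled red for glucagon and open blue for DMSO, circles for experiment 1 and squares for experiment 2, with a grey line joining the arrays of an experiment. For each gene shown, both glucagon arrays lie to the right of both DMSO arrays, which their choice by the size of the rise favours. Over all tested genes the groups did not overlap, in either direction, in 39.2%. For Pck1 and Etnppl the circle with DMSO lies to the left of the square.

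Amino acid breakdown, the urea cycle and amino acid transport held 6, 5 and 1 raised genes, of 44, 21 and 25 tested. Of all tested genes 0.643% rose, and these lists were chosen with earlier results of these data known. Etnppl, the phospholyase that breaks down phosphoethanolamine, had signals of 9.03 and 9.94 with glucagon, against 4.39 and 5.96 with DMSO (probe set 17402642; log2 difference 4.31, SE 0.20, adjusted p = 0.000774, and adjusted p = 0.0857 without the block), a 19.8-fold rise. Mat1a, the liver enzyme that makes S-adenosylmethionine from methionine, had 10.95 and 11.47 with glucagon, against 7.06 and 8.50 with DMSO (log2 difference 3.43, SE 0.25, adjusted p = 0.00318, and adjusted p = 0.184 without the block). Both genes were higher in experiment 2 than in experiment 1 under either treatment, and both rose in each. Aass, the enzyme that opens lysine breakdown, had 9.98 and 10.34 with glucagon, against 7.31 and 7.44 with DMSO (log2 difference 2.79, SE 0.14, adjusted p = 0.000912). Further along the methionine route, Cbs, which joins homocysteine to serine, had 9.51 and 9.32 with glucagon, against 8.04 and 8.34 with DMSO (log2 difference 1.22, SE 0.17, adjusted p = 0.037, and adjusted p = 0.0857 without the block). Hgd of tyrosine breakdown had 7.19 and 7.97 with glucagon, against 5.38 and 6.64 with DMSO (log2 difference 1.57, SE 0.19, adjusted p = 0.0203, and adjusted p = 0.6 without the block), and Hal, which opens histidine breakdown, had 6.05 and 7.24 with glucagon, against 3.93 and 5.68 with DMSO (log2 difference 1.84, SE 0.27, adjusted p = 0.0384, and adjusted p = 0.729 without the block). These 6 were the rises among 44 tested genes of amino acid breakdown, with 0 falls and a median of 0.17. Of the others, the tyrosine aminotransferase gene Tat, a classic glucocorticoid and cyclic AMP target, had 12.27 and 12.14 with glucagon, against 11.12 and 11.48 with DMSO and did not pass (difference 0.90 (SE 0.17), adjusted p = 0.0822). The tryptophan dioxygenase gene Tdo2 had 1.10 (SE 0.26), Agxt had 0.89 (SE 0.16) and Hpd had 0.56 (SE 0.12), with adjusted p-values of 0.133, 0.079 and 0.117.

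In the urea cycle and its feeders 5 of 21 tested genes rose and 0 fell, beside 0.643% and 0.282% of all genes, with a list median of 0.29. Slc25a15, the carrier that brings ornithine into mitochondria, had 10.31 and 10.48 with glucagon, against 7.39 and 7.45 with DMSO (probe set 17508036; log2 difference 2.98, SE 0.12, adjusted p = 0.000774). Slc25a22, a mitochondrial glutamate carrier, had 9.10 and 9.04 with glucagon, against 7.16 and 6.96 with DMSO (log2 difference 2.01, SE 0.10, adjusted p = 0.000947). These carriers differed little between the experiments. Oat, the ornithine aminotransferase, had 8.31 and 9.04 with glucagon, against 5.87 and 6.98 with DMSO (log2 difference 2.25, SE 0.13, adjusted p = 0.00156, and adjusted p = 0.256 without the block). Aldh4a1, the mitochondrial dehydrogenase that completes the conversion of proline and ornithine carbon to glutamate, had 5.46 and 5.70 with glucagon, against 3.88 and 4.22 with DMSO (log2 difference 1.53, SE 0.11, adjusted p = 0.00318, and adjusted p = 0.062 without the block). Arg1, the arginase that releases urea, had 10.41 and 11.45 with glucagon, against 8.64 and 10.05 with DMSO (log2 difference 1.58, SE 0.13, adjusted p = 0.00479, and adjusted p = 0.728 without the block). The other enzymes of the cycle had smaller differences that did not pass. They were 0.57 (SE 0.11) for Cps1, 0.30 (SE 0.14) for Otc, 0.09 (SE 0.25) for Ass1, 0.20 (SE 0.12) for Asl and 0.30 (SE 0.13) for Nags, and the aspartate carrier Slc25a13 had 0.64 (SE 0.10) (adjusted p = 0.0538). Among 25 tested amino acid transporters 1 rose, Slc7a2, the carrier of arginine, lysine and ornithine at the cell surface, with 10.69 and 10.31 with glucagon, against 7.66 and 8.46 with DMSO (log2 difference 2.44, SE 0.31, adjusted p = 0.0256, and adjusted p = 0.062 without the block). The median of these transporters was 0.03. The values were 0.59 (SE 0.18) for Slc38a1, 0.47 (SE 0.11) for the aromatic amino acid carrier Slc16a10 and -0.86 (SE 0.20) for Slc1a4, and none of these passed.

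Of 35 tested mitochondrial carriers Slc25a15 and Slc25a22 rose and 1 fell, Slc25a37, the mitoferrin that brings iron into mitochondria, with 7.46 and 6.90 with glucagon, against 8.68 and 7.90 with DMSO (log2 difference -1.11, SE 0.16, adjusted p = 0.038, and adjusted p = 0.426 without the block). The median was 0.07. Of 31 tested genes of the tricarboxylic acid cycle and mitochondrial biogenesis, Ppargc1a and Fh1 rose and 0 fell, with a median of 0.04. The next by p, Idh3a, had 0.81 (SE 0.14) (adjusted p = 0.0649), and Tfam, the factor of mitochondrial DNA, had -0.36 (SE 0.12). In fatty acid oxidation and the PPARα targets 1 of 35 rose and 0 fell (median 0.07). It was Cpt1a, the outer membrane enzyme that admits fatty acids to mitochondria, with 9.53 and 8.98 with glucagon, against 7.47 and 7.30 with DMSO (log2 difference 1.88, SE 0.13, adjusted p = 0.00318, and adjusted p = 0.0615 without the block). Other PPARα targets had negative values that did not pass, -1.20 (SE 0.23) for Angptl4, -0.80 (SE 0.14) for Acot2 and -0.60 (SE 0.12) for Plin2, while Ehhadh had 0.57 (SE 0.14). Fgf21, a fasting hormone of the liver, had -0.01 (SE 0.19).

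In fatty acid synthesis 1 of 27 tested genes rose and 0 fell (median 0.12). That gene was Acacb, the acetyl-CoA carboxylase at mitochondria whose product inhibits the Cpt1a enzyme, with 6.03 and 6.40 with glucagon, against 4.59 and 5.23 with DMSO (log2 difference 1.30, SE 0.14, adjusted p = 0.0139, and adjusted p = 0.222 without the block). Fasn had 0.45 (SE 0.13) and Srebf1 0.29 (SE 0.10). The cholesterol synthesis list had the highest median of all lists, 0.57. Of its 22 tested members 20 lay above 0, as did 6509 of all 13845 genes tested. By limma 14 of the 22 had an unadjusted p below 0.05, beside 13.1% of all genes. After adjustment 2 rose and 0 fell. They were Pmvk, the phosphomevalonate kinase, with 7.93 and 7.70 with glucagon, against 5.75 and 6.08 with DMSO (log2 difference 1.90, SE 0.15, adjusted p = 0.00445), and lanosterol synthase, Lss, with 8.16 and 7.86 with glucagon, against 7.13 and 6.996 with DMSO (log2 difference 0.95, SE 0.14, adjusted p = 0.0421, and adjusted p = 0.21 without the block). The list's median was 0.84 in experiment 1 and 0.30 in experiment 2. Of 21 tested genes of glycolysis and glycogen 0 passed in either direction, 10 having an unadjusted p below 0.05, beside 13.1% of all genes (median 0.26), the nearest being Pfkfb2, which sets the level of fructose 2,6-bisphosphate, with 8.04 and 7.94 with glucagon, against 6.08 and 6.95 with DMSO (difference 1.48 (SE 0.23), adjusted p = 0.0525). Pklr, the liver pyruvate kinase gene, had -0.29 (SE 0.10), the glucokinase regulator gene Gckr 0.61 (SE 0.12) and the liver glycogen synthase gene Gys2 0.75 (SE 0.16).

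**Figure D3:**
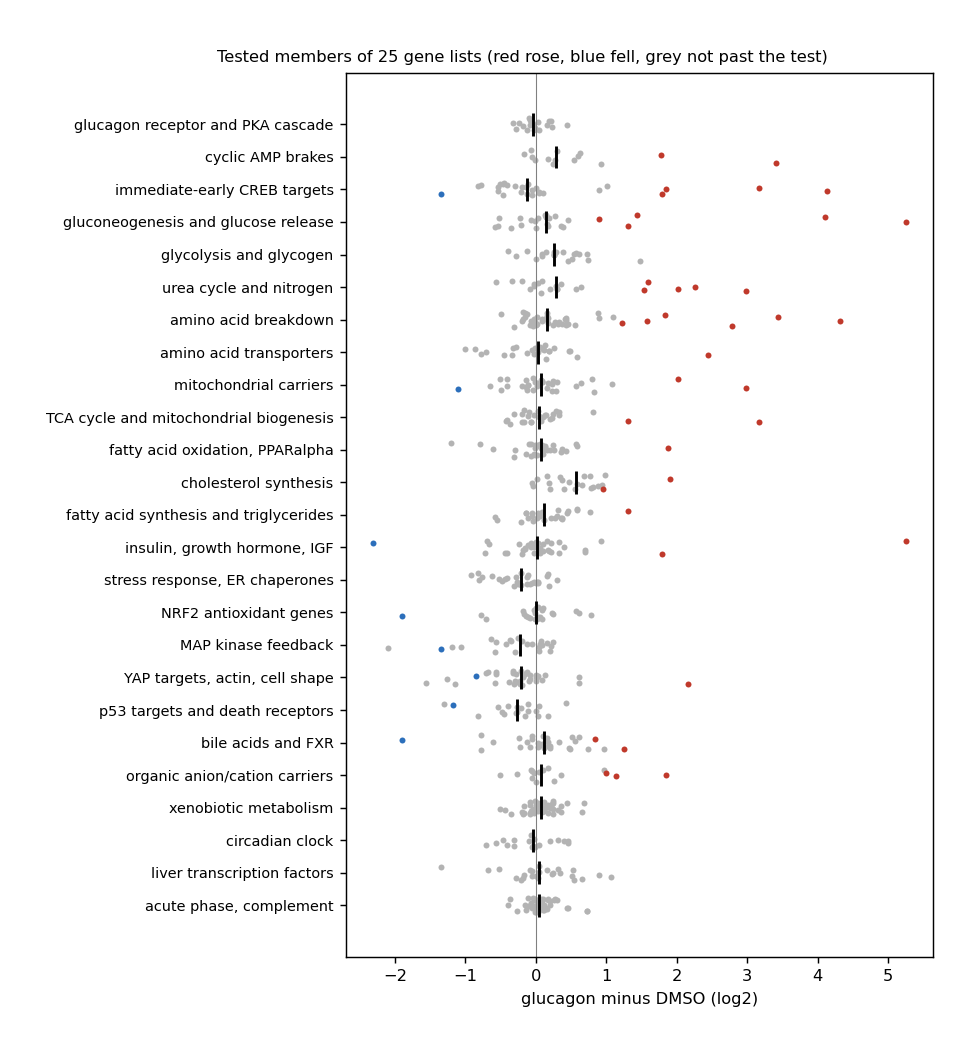
Glucagon minus DMSO (log2, x axis) for the tested members of each of 25 gene lists (rows), red for genes that rose, blue for genes that fell and grey for genes that did not pass, with the list's median as a black bar. The most rises are in the rows of amino acid breakdown (6 of 44), gluconeogenesis (5 of 26) and the urea cycle (5 of 21). Immediate-early CREB targets hold 4 of 28 and organic anion and cation carriers 3 of 16. Of all tested genes 0.643% rose, and the lists were chosen with earlier results of these data known. Most grey points lie near 0, and the median bar of cholesterol synthesis, at 0.57, lies farthest to the right.

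Of 16 tested carriers of the blood-facing membrane 3 rose and 0 fell, beside 0.643% and 0.282% of all genes, with a list median of 0.08. Slco1a4, an organic anion transporter, had 7.29 and 7.41 with glucagon, against 5.39 and 5.62 with DMSO (log2 difference 1.84, SE 0.14, adjusted p = 0.00366, and adjusted p = 0.0531 without the block), Slco2b1 had 5.79 and 5.65 with glucagon, against 4.40 and 4.76 with DMSO (log2 difference 1.14, SE 0.16, adjusted p = 0.037, and adjusted p = 0.0857 without the block), and the monocarboxylate transporter Slc16a7 had 7.53 and 8.20 with glucagon, against 6.38 and 7.35 with DMSO (log2 difference 1.001, SE 0.13, adjusted p = 0.0299, and adjusted p = 0.693 without the block). Among 31 tested genes of bile acid metabolism and FXR, Baat, which joins bile acids to amino acids, had 5.17 and 5.02 with glucagon, against 4.18 and 4.35 with DMSO (log2 difference 0.83, SE 0.12, adjusted p = 0.0421, and adjusted p = 0.108 without the block), and the related acyltransferase gene Acnat2 had 5.11 and 4.71 with glucagon, against 3.48 and 3.83 with DMSO (log2 difference 1.26, SE 0.19, adjusted p = 0.0421, and adjusted p = 0.117 without the block). Osgin1, on this list and on that of NRF2 genes, fell and is given below. The median of the list was 0.12, and the sterol exporter gene Abcg5 had 0.97 (SE 0.16) (adjusted p = 0.0649).

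The lists held 33 of the 89 genes that rose. Among the 20 largest rises, those outside the lists were Gpcpd1, the phosphodiesterase that cleaves glycerophosphocholine, with 9.85 and 10.21 with glucagon, against 7.77 and 8.40 with DMSO (log2 difference 1.95, SE 0.14, adjusted p = 0.00366, and adjusted p = 0.0735 without the block), Tpbgl with 5.59 and 5.79 with glucagon, against 3.72 and 3.88 with DMSO (log2 difference 1.89, SE 0.11, adjusted p = 0.00168), Fezf1, known as a transcription factor of the forebrain, with 9.15 and 9.59 with glucagon, against 6.58 and 7.96 with DMSO (log2 difference 2.10, SE 0.26, adjusted p = 0.0256, and adjusted p = 0.415 without the block), AA986860 with a difference of 2.11 (SE 0.22) (adjusted p = 0.0138, and 0.211 without the block) and the long noncoding RNA Gm15998 with 2.56 (SE 0.23) (adjusted p = 0.00796, and 0.103 without the block), whose DMSO signals of 2.46 and 2.47 lay under the filter level, so that its rise is a lower limit. Palmd, a palmdelphin gene on the list of cell shape, had 8.48 and 8.27 with glucagon, against 5.93 and 6.49 with DMSO (log2 difference 2.17, SE 0.20, adjusted p = 0.00812). The genes named from here to the end of the paragraph were chosen after their values were seen, other than Ackr3 and Shld2. Enzymes of nitrogen and one-carbon breakdown were among them: Acmsd, which turns tryptophan carbon away from NAD synthesis, rose by 1.12 (SE 0.10), and Dmgdh, of choline breakdown, by 1.25 (SE 0.14). Gde1, another glycerophosphodiester phosphodiesterase, rose by 0.99 (SE 0.13). The lipid droplet proteins Plin4 and Hilpda rose by 1.27 (SE 0.17) and 0.94 (SE 0.13). Gys1, the glycogen synthase of muscle, rose by 1.13 (SE 0.12), and Cyp17a1, a steroid hydroxylase, by 1.498 (SE 0.22). In retinoid handling, Aldh1a1, which makes retinoic acid, rose by 0.83 (SE 0.11) and Stra6l, a retinol-binding protein receptor, by 0.79 (SE 0.11). Afp, alpha-fetoprotein, rose by 0.85 (SE 0.12), at low signal (4.19 and 3.87 with glucagon, against 3.21 and 3.13 with DMSO). The atypical chemokine receptor Ackr3 and the repair gene Shld2 rose by 1.82 (SE 0.17) and 1.11 (SE 0.12), and these 2 also passed without the block. The genes chosen with their values known had adjusted p-values of 0.00857 to 0.0378 with the block and of 0.0735 to 0.835 without the block. By RefSeq type, 122 of the 128 called genes were protein-coding, 3 were long noncoding RNAs (Gm15998, 1810012K16Rik and 4833422C13Rik, all up) and 3 were miRNA genes (Mir344d-2, Mir1933 and Mir1904, all up), and without the block these 6 had adjusted p-values of 0.0635 to 0.508.

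The falls were smaller and none but Eda2r passed without the block. Socs2, the suppressor that growth hormone induces through STAT5 to limit its own signal, fell most, with signals of 4.84 and 4.53 with glucagon, against 7.31 and 6.67 with DMSO (log2 difference -2.31, SE 0.21, adjusted p = 0.00796, and adjusted p = 0.188 without the block), a level 4.96-fold lower. On the list of insulin, growth hormone and IGF signalling, with 36 tested genes and a median of 0.02, it was the 1 fall, against 2 rises (Irs2 and Pck1). Cish, another growth hormone target of that family, had -0.72 (SE 0.15), Igf1 had 0.70 (SE 0.12) and Grb14, an adaptor that restrains the insulin receptor, 0.92 (SE 0.14), and none of them passed. Slc4a11, a membrane transporter whose signals are given above, fell by 2.08 (SE 0.12, adjusted p = 0.00156, and 0.856 without the block). Its fall was close to equal in the experiments, -2.24 and -1.91. Osgin1, a target of NRF2 and of FXR, had 8.34 and 7.98 with glucagon, against 10.69 and 9.43 with DMSO (log2 difference -1.90, SE 0.26, adjusted p = 0.0328, and adjusted p = 0.342 without the block).

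Osmr, the oncostatin M receptor, had 4.65 and 3.95 with glucagon, against 6.14 and 4.97 with DMSO (log2 difference -1.26, SE 0.15, adjusted p = 0.0189, and adjusted p = 0.659 without the block), and Il17ra, the interleukin 17 receptor, had 6.37 and 6.32 with glucagon, against 7.74 and 7.18 with DMSO (log2 difference -1.12, SE 0.16, adjusted p = 0.0367, and adjusted p = 0.229 without the block). Plaur, the urokinase receptor, had 7.71 and 7.01 with glucagon, against 9.54 and 8.27 with DMSO (log2 difference -1.55, SE 0.20, adjusted p = 0.0281, and adjusted p = 0.624 without the block). The transcription factor Runx1 had 4.94 and 5.31 with glucagon, against 6.65 and 6.40 with DMSO (log2 difference -1.40, SE 0.17, adjusted p = 0.024, and adjusted p = 0.0615 without the block), and Rin1, an effector of Ras, had 6.36 and 5.60 with glucagon, against 8.18 and 6.95 with DMSO (log2 difference -1.59, SE 0.22, adjusted p = 0.0341, and adjusted p = 0.661 without the block). Each of these genes fell in both experiments. Eda2r, which belongs to the tumour necrosis factor receptors and is a p53 target, had 5.57 and 5.60 with glucagon, against 6.74 and 6.79 with DMSO (log2 difference -1.18, SE 0.11, adjusted p = 0.00857). Slc40a1, the iron exporter ferroportin, fell beside the mitoferrin gene Slc25a37, with 7.19 and 7.46 with glucagon, against 8.52 and 8.43 with DMSO (log2 difference -1.15, SE 0.13, adjusted p = 0.0167, and adjusted p = 0.062 without the block). Wwtr1, which encodes the YAP relative TAZ, had 6.54 and 5.84 with glucagon, against 7.32 and 6.76 with DMSO (log2 difference -0.85, SE 0.11, adjusted p = 0.0295, and adjusted p = 0.659 without the block). It was the 1 fall among 36 tested genes of YAP targets and cell shape, against 1 rise (Palmd), with a median of -0.22. Of the 36, 27 lay below 0, as did 7336 of all 13845 genes tested. The YAP targets Ankrd1, Ccn2 and Ccn1 had -1.55 (SE 0.44), -1.14 (SE 0.35) and -0.70 (SE 0.24) and did not pass, and their values were larger in experiment 1 (-2.48, -1.79 and -1.15) than in experiment 2 (-0.63, -0.50 and -0.25). Chosen after their values were seen, Msn and Iqgap1, which tie actin to the membrane and to signalling scaffolds, fell by 0.95 and 1.01, and the Ras relative Rras2 by 0.78, with adjusted p-values of 0.222 to 0.87 without the block.

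**Figure D4:**
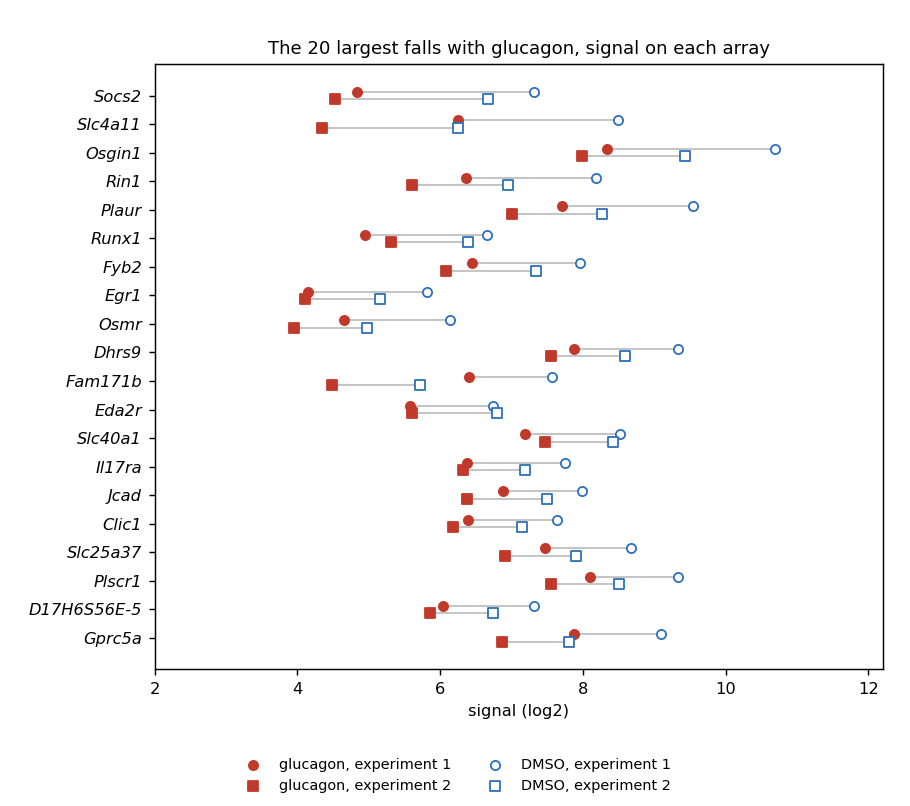
Log2 signal (x axis) on the 4 arrays for the 20 genes with the largest falls, filled red for glucagon and open blue for DMSO, circles for experiment 1 and squares for experiment 2, with a grey line joining the arrays of an experiment. In each pair the glucagon array lies to the left. For Slc4a11, Fam171b and Gprc5a the pools stand so far apart that the glucagon array of experiment 1 lies close to or beyond the DMSO array of experiment 2.

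Of the other lists of signalling genes, MAP kinase feedback had 1 fall (Egr1) and 0 rises among 24 tested (median -0.23), with -2.09 (SE 0.63) for the growth factor Hbegf, -1.06 (SE 0.26) for Ier2 and -0.59 (SE 0.15) for the transcription factor Myc, none of which passed. Genes of p53 and death receptors had 1 fall (Eda2r) and 0 rises among 19 (median -0.26), with -1.31 (SE 0.32) for Plk2. NRF2 genes had 1 fall (Osgin1) and 0 rises among 24 (median 0.00), and Hmox1 had 0.79 (SE 0.35). The integrated stress response and endoplasmic reticulum chaperones had 0 in either direction among 29, 10 at an unadjusted p below 0.05, beside 13.1% of all genes. While 7336 of all 13845 genes tested lay below 0, 22 of the 29 on this list did (median -0.21). Its nearest members by p were Ddit3, the factor CHOP, with -0.92 (SE 0.15), Nupr1 with -0.81 (SE 0.13), Ppp1r15a with -0.77 (SE 0.13) and the chaperone Hspa5 with -0.62 (SE 0.12) (adjusted p = 0.0603 to 0.0869). In 4 further lists 0 genes passed limma's test either way. Xenobiotic metabolism had 5 of 43 tested genes at an unadjusted p below 0.05 (median 0.07), liver transcription factors 8 of 25 (0.04), the circadian clock 5 of 18 (-0.04) and acute phase, complement and coagulation 5 of 46 (0.04), beside 13.1% of all tested genes. Among their members, the haem synthesis gene Alas1 had 0.69 (SE 0.17), the homeobox factor Prox1 1.07 (SE 0.17) (adjusted p = 0.0536), Foxa2 0.51 (SE 0.15), the clock gene Arntl 0.46 (SE 0.11) and the coagulation factor gene F7 0.72 (SE 0.13) (adjusted p = 0.0758).

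Of the markers of cell types 0 passed in any of the 6 lists by limma. At an unadjusted p below 0.05 were 3 of 5 tested cholangiocyte markers, 1 of 14 hepatocyte markers (Cps1), 1 of 11 endothelial markers (Oit3) and 0 of the other lists, against 13.1% of all tested genes. The log2 of the summed signal of 14 hepatocyte markers was 15.20 and 15.36 with glucagon, against 15.07 and 15.34 with DMSO. For 14 Kupffer cell and macrophage markers, of which 11 cleared the filter, it was 10.45 and 10.80 with glucagon, against 10.26 and 10.77 with DMSO, most of it from Cd68, whose signal with DMSO was 10.09 and 10.63. For 14 sinusoidal endothelial markers, 11 of them above the filter, it was 8.91 and 8.30 with glucagon, against 8.95 and 8.28 with DMSO. The log2 sum of 14 stellate cell and fibroblast markers, 6 of them above the filter, was 7.61 and 7.95 with glucagon, against 7.57 and 7.96 with DMSO, with Lrat, Des and the collagens Col1a1, Col1a2 and Col3a1 below the filter. For 13 markers of lymphocytes and neutrophils, 4 of them above the filter, it was 6.66 and 6.75 with glucagon, against 6.74 and 6.67 with DMSO. The 9 cholangiocyte markers summed to 8.16 and 8.41 with glucagon, against 8.52 and 8.82 with DMSO, lower with glucagon in both experiments, and 5 of the 9 cleared the filter. With GW4064 present the sum was 8.17 and 8.59 with both agents, against 9.05 and 8.20 with GW4064 alone, so it was higher with glucagon in experiment 2 there. Sox9 among them had 5.43 and 5.76 with glucagon, against 6.88 and 6.83 with DMSO (difference -1.26 (SE 0.45), adjusted p = 0.314). Cldn4, the brightest of them, had 7.48 and 7.80 with glucagon, against 7.43 and 8.09 with DMSO, and was not lower in experiment 1. Of the 5 tested, 3 had the same sign in both experiments. The part of the lower cholangiocyte sum in the falls above was not tested. Panel genes often used as references had -0.10 (SE 0.12) for Actb, -0.06 (SE 0.13) for Hprt and -0.34 (SE 0.15) for Tbp.

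The glucagon difference was also measured in the presence of GW4064, as cells with both agents against cells with GW4064 alone. These 4 arrays do not enter the size of the difference from DMSO, and their cells came from the same 2 pools. The 4 arrays did enter the spread by which the 89 and 39 genes were called. That choice favours genes whose differences with GW4064 present were alike in both experiments. The counts of signs that follow are therefore not independent of it. All 89 genes that rose had positive values and all 39 that fell had negative values in both experiments there, while over all genes 30.6% were positive in both and 28.2% negative in both. The GW4064 array of experiment 2 enters this comparison, and in experiment 1 alone the counts were also 89 and 39, where 47.7% of all genes were positive and 52.3% negative. By the test 97 genes rose (0.701%) and 50 fell (0.361%), and these included 69 of the 89 and 29 of the 39. The 147 calls became 6 without either array of the combined treatment, 56 without either DMSO array, 72 without either glucagon array, 1940 without the GW4064 array of experiment 1 and 190 without that of experiment 2. The median of the 89 was 1.29 with GW4064 present and 1.30 without it, and that of the 39 was -0.92 with and -1.08 without. Pck1, for example, differed by 5.05 with GW4064 and 5.26 without, Etnppl by 4.03 and 4.31, Slc25a15 by 2.91 and 2.98, and Socs2 by -2.81 and -2.31.

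The difference between the 2 glucagon effects, tested as an interaction, passed for 0 genes (0% of the genes tested; smallest adjusted p = 0.9996), in limma with or without the block, and 332 genes (2.4%) had an unadjusted p below 0.05, 4 of them among the 128. For the 128 the interaction lay between -0.68 and 0.59 with a median SE of 0.19, and a miss of the threshold does not show that the effects are alike. The 4 genes were Ppargc1a with an interaction of 0.59 (SE 0.20), Slco2b1 with 0.58 (SE 0.23), Eda2r with 0.49 (SE 0.16) and Cdc42ep5, an effector of the GTPase Cdc42 named after its values were seen, with 0.58 (SE 0.22). Leaving out the array of GW4064 alone from experiment 1, so that its only remaining array was the one that stood apart, 261 genes passed.

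**Figure D5:**
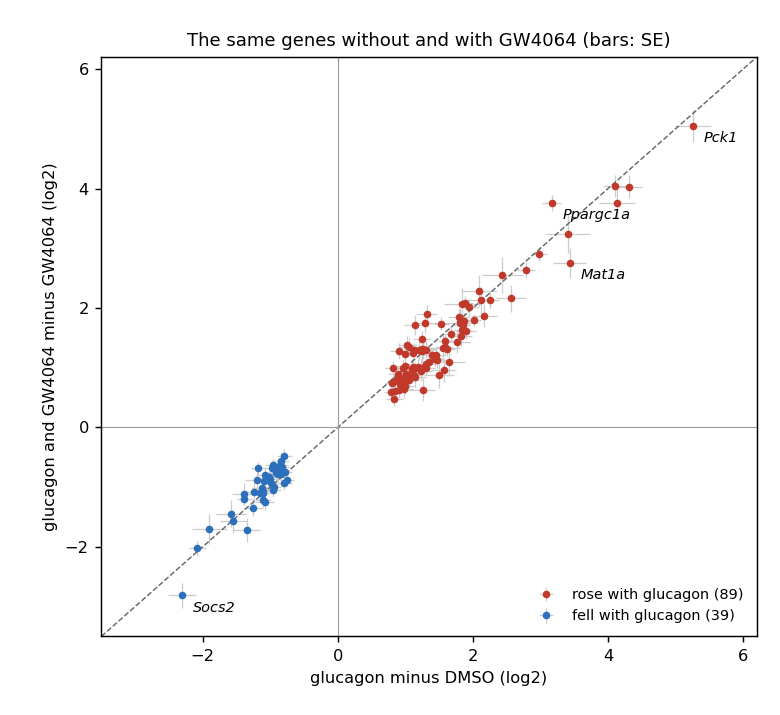
Glucagon minus DMSO (log2, x axis) against the combined treatment minus GW4064 (log2, y axis) for the 89 genes that rose (red) and the 39 that fell (blue), with limma's SE as grey bars and equal values on the dashed line. All points lie in the upper right or lower left and close to the line, with Pck1 at 5.26 and 5.05.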

How the data were processed

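Total RNA (300 ng per labelling) of cultured hepatocytes was hybridised to Affymetrix MoGene 2.0 ST arrays. Per the labels, the authors processed them in GeneSpring (version, background correction, summarisation, normalization and genome build not given in the sources used here). The deposited log2 values (scale read from their range) were used as they stand, and their precision is limited by how few arrays there are.

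Of 41345 probe sets, 23521 carry 1 gene symbol in the platform annotation, 1814 several and 16010 none. Probe sets with 1 symbol above the 40th percentile of their array on at least 2 arrays were kept, the brightest per gene (13845 genes; 13749 found in RefSeq by identifier, 0 symbols changed). limma 3.58.1 (R 4.3.3) was fitted to all 8 arrays with a mean per group and the experiment as a block (3 residual and 3.58 prior degrees of freedom). P-values are two-sided, with Benjamini-Hochberg adjustment across the tested genes and a threshold of 0.05. Each experiment used its own cell pool, and deviations from group means correlated at 0.350 to 0.620 between arrays of an experiment, so the experiment pairs the arrays. P-values rest on how far the treatment differences disagreed between the 2 pools, over all 8 arrays, and on a prior shared across genes. The difference in level between the pools is taken out by the block and is not part of that spread. A fit without the block and other alternatives were run, and the steps were tested on simulated data.

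Members, block, 31 gene lists and the rule for named genes were chosen with earlier results of these data known. The rule takes the 20 largest rises and falls, genes called without the block, called members of each list and up to 4 others by p, a panel of 24 genes, and 10 genes by interaction p. Promoters are RefSeq's, build GRCm38.p6.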

Additional observations from a re-analysis of the deposited data

Results flagged for a closer look

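For 13 named genes the glucagon difference ran one way in both experiments without GW4064 and the other way in both experiments with it. Those listed first below were named for a small interaction p, a choice that favours such a change of sign. The share of all tested genes with this pattern was not counted, so the 13 cannot be set against it. The interaction passed for none of them in limma (smallest adjusted p = 0.9996), and the GW4064 array of experiment 2, which stood apart from the others, enters each value. Of the genes named for a small interaction p, Lrrc61 had an interaction of 1.37 (0.92 with GW4064 and -0.46 without), and Gm6124 had an interaction of -1.21 (-0.65 with GW4064 and 0.56 without). Gm15080 had an interaction of -1.15 (-0.49 with GW4064 and 0.66 without), and 4930448K20Rik had an interaction of -0.94 (-0.47 with GW4064 and 0.47 without). The signals of 4930448K20Rik lay near or under the filter level. They were 3.26 and 3.17 with glucagon, 2.70 and 2.79 with DMSO, 2.78 and 2.95 with both agents and 3.16 and 3.51 with GW4064. Btbd35f2 had an interaction of 0.88 (0.80 with GW4064 and -0.08 without), and Gm8672 had an interaction of 0.76 (0.40 with GW4064 and -0.36 without). Olfr1299 had an interaction of -0.72 (-0.44 with GW4064 and 0.29 without), and Zfp869 had an interaction of -0.64 (-0.45 with GW4064 and 0.19 without). Among marker genes the values were smaller. Rgs5 had an interaction of 0.53 (0.28 with GW4064 and -0.24 without), and Acta2 had an interaction of 0.32 (0.12 with GW4064 and -0.20 without). Asgr1 had an interaction of -0.26 (-0.11 with GW4064 and 0.15 without), and Ptprc had an interaction of -0.20 (-0.03 with GW4064 and 0.17 without). The Ptprc signals also lay near the filter level, 3.23 and 3.29 with glucagon, against 3.04 and 3.14 with DMSO. Fcgr2b had an interaction of -0.19 (-0.11 with GW4064 and 0.08 without).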

How the results depend on the processing

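Counts of genes past the threshold for glucagon against DMSO (128, 89 up and 39 down) were within 1.5 times under quantile normalization, no filter or a filter at the 60th percentile, every probe set with 1 symbol, and only the groups compared. Without the replicate block, which ignores the pairing, 16 passed (15 up, 1 down), and 59 (50 and 9) with the experiment as a random block. A trended robust prior gave 233 (134 and 99) and array weights 479 (224 and 255). Chosen after seeing the data, testing all 27338 probe sets past the filter, with or without a symbol, gave 17 (16 and 1), and dropping the block and the GW4064 array of experiment 2 gave 27 (25 and 2); the cause was not tested. With array weights, and without either GW4064 array, falls outnumbered rises. Leaving out 1 array at a time gave 10 to 438 in all, 10 to 204 up and 0 to 234 down. Dropping either GW4064 array gave the same counts, since the one left is then fitted exactly.

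For the combined treatment against GW4064 (147, 97 up and 50 down) the counts were 23 (22 and 1) without the block, 75 (56 and 19) with a random block, 245 (142 and 103) with the robust prior, 66 (53 and 13) with array weights, 13 (12 and 1) over all probe sets, and 9 (8 and 1) without block and array. At the 60th percentile 80 were down. Without 1 array they were 6 to 1940, 6 to 1170 up and 0 to 770 down. The interaction stayed at 0 except when 1 array was left out (0 to 261, up 0 to 144, down 0 to 117); only the groups compared give no value for it or for the combined treatment. Of the 203 named genes, none that passed changed sign under the alternatives run, and 12 that did not pass did under at least 1. Every called gene had the same sign in both experiments, so for those that passed a kept sign was nearly settled by their choice. Without the block 45 of the named genes that passed lost the call and 16 kept it.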

Other observations

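Some called genes were neighbours among the protein-coding genes of RefSeq (GRCm38.p6), 4 pairs in all, each with both members up. Aass and Fezf1 lie next to each other on chromosome 6. Fezf1 had signals of 9.15 and 9.59 with glucagon, against 6.58 and 7.96 with DMSO, and the other glucagon comparison gave 2.29 for Fezf1 and 2.63 for Aass. On chromosome 8 Slc25a15 stands beside Mrps31, a gene of the mitochondrial ribosome, which had 8.25 and 8.25 with glucagon, against 7.23 and 7.20 with DMSO (difference 1.03 (SE 0.14)). Slco2b1 and Tpbgl are neighbours on chromosome 7, with differences of 1.14 and 1.89. The last pair, also on chromosome 7, is Cdc42ep5, an effector of the GTPase Cdc42, and Leng9, with 1.32 and 0.98. Mrps31, Leng9 and Cdc42ep5 were named after their values were seen, and without the block their adjusted p-values were 0.0885, 0.111 and 0.188.

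Outside the genes with 1 symbol, 1381 probe sets with several symbols and 11318 with none passed the filter. When all probe sets were tested together, 0 with several symbols and 0 with none were called, against 17 of the 14639 with 1 symbol (limma with the block; 9 without it). At an unadjusted p below 0.05 in that limma fit with the block were 107 of the 1381 with several symbols, 722 of the 11318 with none and 1370 of the 14639 with 1 symbol. That fit is not the one that gave 13.1% of the tested genes.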
